A study of Homo sapiens with 6 samples.

Results

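The genes described here are the subunits, inhibitors and activators of the transcription factor NF-kB together with well-known inflammatory targets. They form a list of 35 symbols chosen by function, with earlier results of these data known. All 35 were found among the 23368 gene symbols of the count table. The cells were HCT116, an established human colon cancer line, in which RNA interference targeted ADNP, a zinc finger protein of chromatin (siADNP), or in which a control siRNA was used (siControl). Each group held 3 libraries made from total RNA, and the design text calls them biological replicates without saying whether they came from separate cultures, so that p-values measure only the spread between these libraries, part of which may be technical. The labels name a single cell line and no agent besides the siRNAs. The sources used here give no dose, time after transfection or siRNA sequence. In such bulk libraries fewer cells with a transcript and less of it per cell cannot be told apart.

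NF-kB is a family of dimers built from RELA, REL, RELB, NFKB1 and NFKB2. In resting cells IkB proteins hold the dimers in the cytoplasm. Signals from tumour necrosis factor, interleukin 1 or bacterial products activate the IkB kinase, which marks IkB for destruction, and the freed dimers switch on cytokines, chemokines, adhesion molecules, survival genes and their own inhibitors. In intestinal epithelium and colon cancer the pathway is known for linking inflammation to survival and growth.

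Reads assigned to genes numbered 7396771 to 10265175 per library. Levels are given as CPM, each gene's reads scaled to a common library total by the TMM method. A difference is given as a log2 fold change, siADNP minus siControl, with its standard error (SE), and a gene was called when its Benjamini-Hochberg adjusted p in edgeR's quasi-likelihood test, adjusted over all genes tested, was under 0.05. ADNP itself stood at 53.9 ± 6.62 CPM with siADNP and 164 ± 8.24 CPM with siControl (SD, n = 3 each), 32.9% of control. The epithelial markers KRT8, KRT18 and EPCAM were abundant in both groups, while CEACAM5, CEACAM6, CDX1 and VIL1, markers of differentiated colon epithelium, had 0 reads. Of 14 epithelial markers 8 were tested, and KRT19 was called lower (log2 fold change -0.15) and CLDN4 higher (0.25), while the intestinal factor CDX2 stood at 8.49 and 7.41 CPM and was not called. Of 14 blood cell markers, 6 had 0 reads, among them CD3D, MS4A1 and S100A9, and PTPRC had 13 reads over all 6 libraries. The summed level of the blood cell markers was 10.3 to 11.8 CPM with siADNP and 7.11 to 8.52 CPM with siControl, most of it from CD68, a lysosomal protein that many cell types make (log2 fold change 0.42, edgeR adjusted p = 0.0366). DESeq2's Wald test did not call CD68, and its annotated exons overlap other transcripts. The summed level of 12 fibroblast and endothelial markers was 11.9 to 15.5 CPM and 14.3 to 19.1 CPM, and DCN, LUM and CDH5 had 0 reads. Of the 2 of these 12 that could be tested, ACTA2, a smooth muscle actin, was called lower (3.81 and 7.96 CPM, log2 fold change -1.04, edgeR adjusted p = 0.000127) and COL1A1 was not called (0.14). The part of these markers in the results below was not tested.

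Most NF-kB genes that could be measured did not pass the test, and the few that passed went in both directions. Of the 35 genes, 22 had enough reads to be tested. ICAM1, SOD2 and TNFAIP2 were called higher with siADNP and BIRC3 and NFKB1 lower, which makes 5 called genes of 22, or 22.7%, where 28.3% of all 12489 tested genes were called (14.6% higher and 13.7% lower). The median log2 fold change of the 22 genes was 0.017, against -0.0013 over all tested genes. DESeq2's Wald test called the same genes except TNFAIP2, 2 higher and 2 lower, against 9.11% higher and 8.88% lower (18.0% in all) of the 12146 genes to which it gave an adjusted p. The groups did not overlap in 8 of the 22 genes, 36.4%, with siADNP above in 3 and below in 5. Over all tested genes the groups did not overlap in 40.8%, with siADNP above in 20.1% and below in 20.7%. By these counts the share of NF-kB genes called lay near that of the whole transcriptome.

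**Figure D1:**
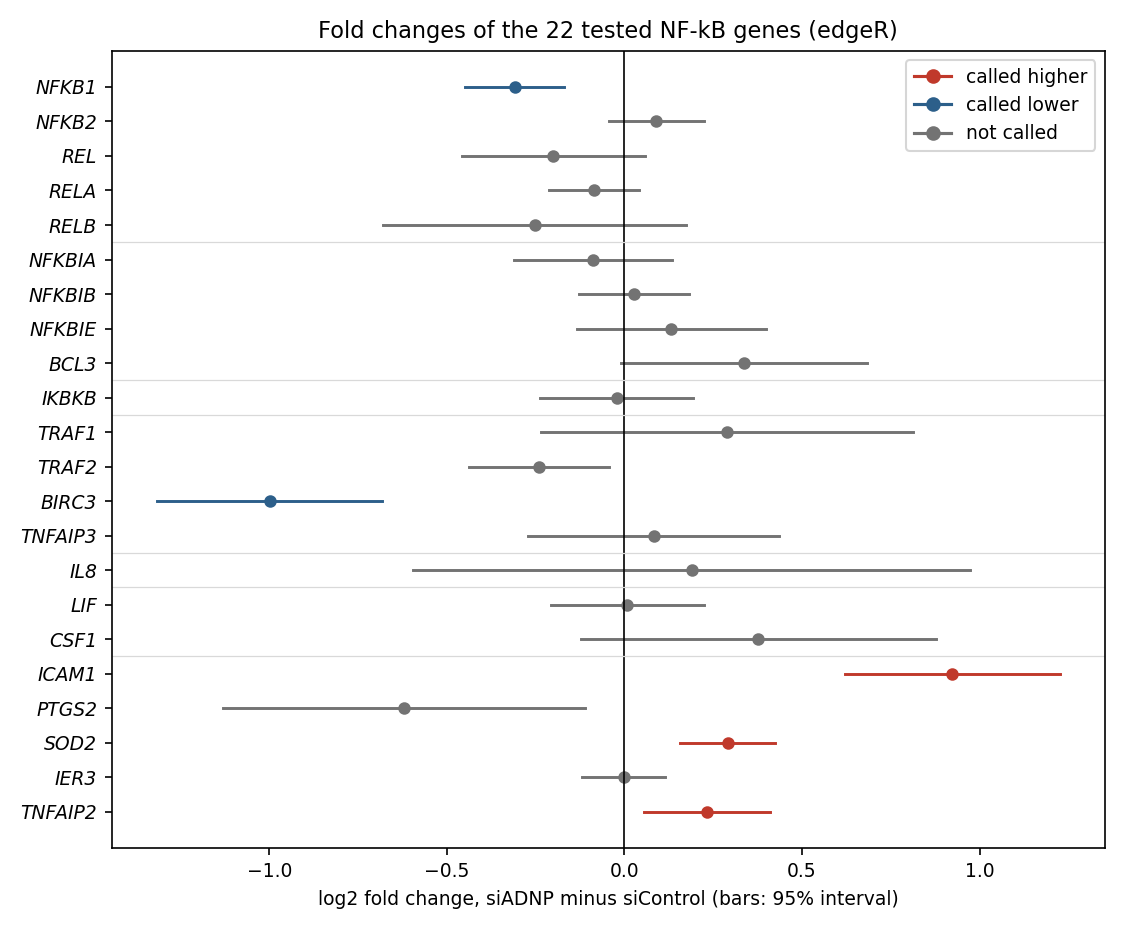
Log2 fold change (siADNP minus siControl, horizontal axis) of the 22 tested genes, ordered by role, with 95% intervals from edgeR; red marks genes called higher, blue genes called lower and grey genes not called. ICAM1 at 0.92 and BIRC3 at -0.999 stand farthest from 0, and the intervals of the IkB proteins and the kinase IKBKB all include it, with BCL3 the farthest of these at 0.34.

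NF-kB dimers recognise a 10-base consensus in the DNA of their targets. Windows from 250 bases before to 50 bases after annotated gene starts (RefSeq, GRCh38.p14) were found for 28 of the 35 genes, some with several starts, and searched for the NF-kB consensus on both strands, counting overlapping matches. Of 40 such windows 18 held a match, 45.0%, where 11.3% of all 35116 windows did. Among the 26 windows of list genes that were tested, 9 held a match, 34.6%. The share for the windows of all tested genes was 13.5%. For list genes that were not tested it was 64.3%. The list holds known NF-kB targets besides parts of the pathway, so these shares are descriptions and no evidence of activity. The stretches below are shown because they belong to the called genes with a match (BIRC3 and NFKB1), to the feedback inhibitors NFKBIA and TNFAIP3, and to the neighbouring chemokine genes CXCL1, CXCL2 and CXCL3, which had almost no reads. Each reads 5′ to 3′ on the gene's strand, ends before the gene start, and has the matches in capitals.
BIRC3, chr11:102317260-102317383, + strand: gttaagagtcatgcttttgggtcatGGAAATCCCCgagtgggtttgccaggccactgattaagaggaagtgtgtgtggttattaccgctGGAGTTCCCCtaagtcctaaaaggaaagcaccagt
NFKB1, chr4:102501285-102501344, + strand: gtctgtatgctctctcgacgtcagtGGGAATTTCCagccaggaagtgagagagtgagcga
NFKBIA, chr14:35404796-35404855, - strand: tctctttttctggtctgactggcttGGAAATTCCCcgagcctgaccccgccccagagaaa
TNFAIP3, chr6:137867167-137867238, + strand: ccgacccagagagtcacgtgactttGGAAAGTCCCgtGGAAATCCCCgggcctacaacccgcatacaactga
CXCL1, chr4:73869289-73869349, + strand: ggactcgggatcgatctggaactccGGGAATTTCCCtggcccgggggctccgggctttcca
CXCL2, chr4:74099238-74099298, - strand: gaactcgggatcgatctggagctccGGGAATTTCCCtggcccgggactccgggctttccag
CXCL3, chr4:74038733-74038793, - strand: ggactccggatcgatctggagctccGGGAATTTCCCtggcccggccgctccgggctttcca
The BIRC3 stretch holds 2 matches, starting 199 and 135 bases before the start, and the NFKB1 stretch 1 match at 49 bases. TNFAIP3 has 2 matches 67 and 55 bases before its start, and NFKBIA 1 at 81 bases. The capitals of CXCL1, CXCL2 and CXCL3 are the same letters, which match on both strands. No window of ICAM1, SOD2 or TNFAIP2 held a match, which says only that these letters do not occur in these windows.

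Among the 5 subunits of NF-kB, NFKB1 fell and the other 4 were not called. NFKB1 encodes p105, the precursor of the p50 subunit and itself an IkB-like inhibitor. It measured 58.8, 64.2 and 61.1 CPM with siADNP and 84.2, 69.7 and 74.9 CPM with siControl. Every siADNP library lay below every siControl library, and siControl replicate 1 was the highest. The means were 61.4 ± 2.71 and 76.3 ± 7.33 CPM (SD, n = 3 each), 80.7% of control, or a log2 fold change of -0.31 ± 0.07 (SE; edgeR adjusted p = 0.000698). Without siControl replicate 1 the log2 fold change was -0.23 (adjusted p = 0.0204), still past the threshold.

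RELA, the main transactivating subunit, measured 74.5, 70.8 and 81.9 CPM with siADNP and 81.4, 80.1 and 79.0 CPM with siControl. The groups overlapped, because siADNP replicate 3 was the highest of all 6, and the log2 fold change was -0.09 (95% interval -0.21 to 0.04). NFKB2, the precursor of the p52 subunit of the alternative pathway, measured 61.7 ± 1.80 and 58.0 ± 2.98 CPM (SD, n = 3), with an interval of -0.04 to 0.22. For REL, at 13.2 and 15.0 CPM, the interval was -0.46 to 0.06. RELB, the partner of p52, had only 24 to 45 reads per library. Its levels were 4.24, 4.30 and 3.25 CPM with siADNP and 5.04, 4.33 and 4.82 CPM with siControl, which do not overlap by a narrow margin, and its interval of -0.68 to 0.17 takes in both 0 and a difference of the size seen in NFKB1. Of the 5 subunits, 4 had log2 fold changes below 0, but the 3 besides NFKB1 did not pass. The summed level of the 5 subunits was 213 to 220 CPM with siADNP and 230 to 241 CPM with siControl, and NFKB1 made up 27.6% to 29.9% and 30.1% to 34.9% of it.

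**Figure D2:**
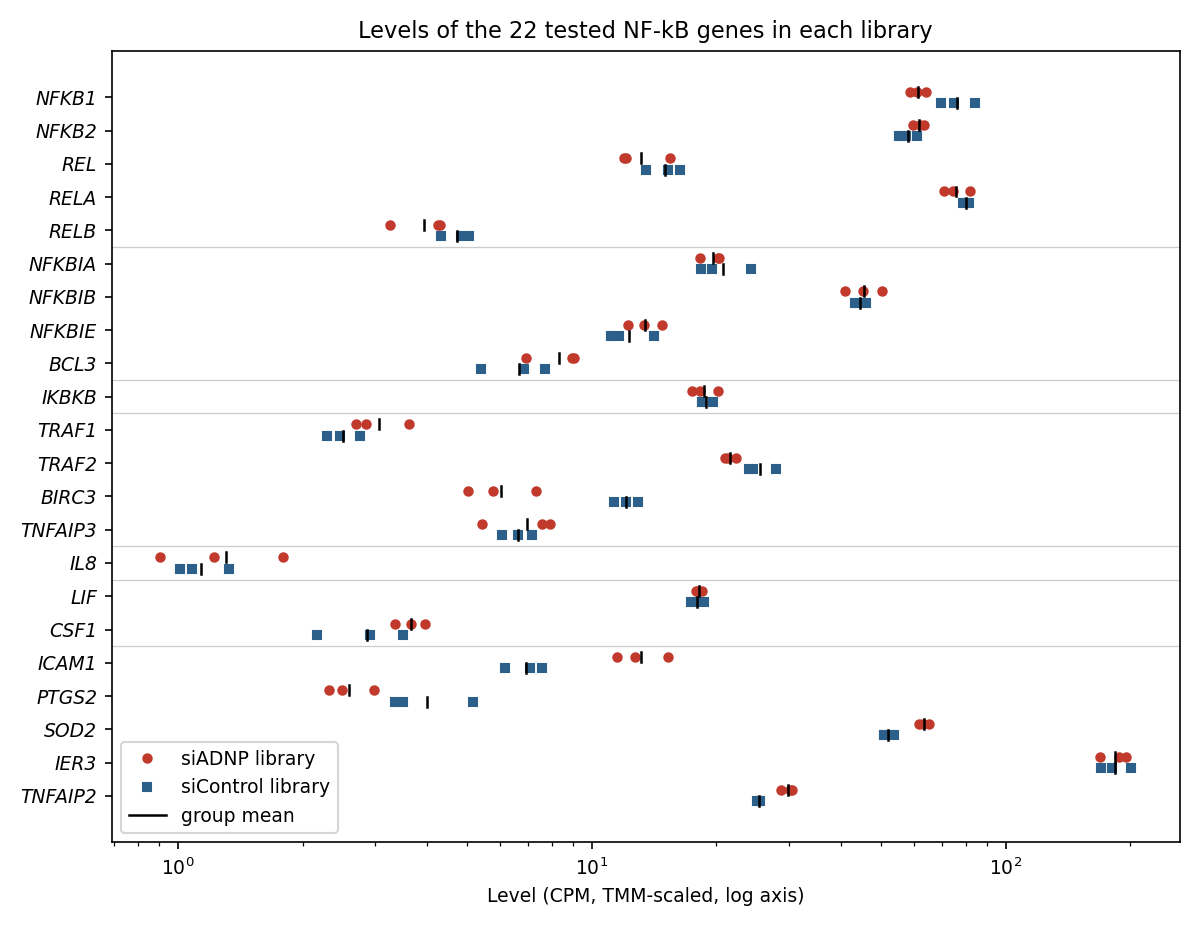
Level of each of the 22 tested genes (CPM, log axis) in every library, red circles for siADNP, blue squares for siControl and black ticks for the group means; lines separate the roles. The groups do not overlap in the called genes ICAM1, BIRC3, SOD2, TNFAIP2 and NFKB1. They also do not overlap in PTGS2, TRAF2 and, by a narrow margin, RELB, which were not called. The IER3 libraries of both groups share the range of 169 to 201 CPM.

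None of the 4 IkB proteins was called, either by edgeR or by DESeq2's Wald test, and none had an unadjusted p under 0.05 in either. NFKBIA, which encodes IkB-alpha, the inhibitor that NF-kB itself induces within minutes of activation, is often read as a reporter of the pathway. It measured 18.2, 20.2 and 20.3 CPM with siADNP and 18.4, 24.2 and 19.5 CPM with siControl. Apart from siControl replicate 2, the libraries of both groups fell in the same range, and the log2 fold change was -0.09 (95% interval -0.31 to 0.13). NFKBIB and NFKBIE, which encode IkB-beta and IkB-epsilon, had intervals of -0.13 to 0.18 and -0.13 to 0.40. BCL3, an atypical IkB protein of the nucleus that works as a coactivator with p50 and p52, measured 6.94, 9.06 and 8.95 CPM with siADNP and 6.84, 5.41 and 7.72 CPM with siControl. Its log2 fold change of 0.34 ± 0.17 (SE) did not pass (edgeR adjusted p = 0.140). IKBKB, the catalytic subunit of the IkB kinase in the canonical pathway, stood at 18.6 ± 1.42 and 18.9 ± 0.665 CPM (SD, n = 3), with an interval of -0.24 to 0.19.

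BIRC3 showed the largest difference of the 22 genes. It encodes cIAP2, a ubiquitin ligase that joins TRAF2 at tumour necrosis factor receptors and is a classical NF-kB target. Its level was 7.32, 5.78 and 5.02 CPM with siADNP and 11.3, 12.1 and 12.9 CPM with siControl. The lowest siControl library lay well above the highest siADNP library. From the siControl mean of 12.1 ± 0.789 CPM to the siADNP mean of 6.04 ± 1.17 CPM (SD, n = 3 each), BIRC3 fell to 50.03% of control, or a log2 fold change of -0.999 ± 0.16 (SE; edgeR adjusted p = 6.00e-06). The reads behind it were few, 145 in all with siADNP and 331 with siControl. Over the 16 other settings on the count scale the log2 fold change stayed between -1.15 and -0.89, called in each.

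TRAF2, the adaptor that brings cIAP proteins to the receptor, measured 22.3, 21.0 and 21.3 CPM with siADNP and 27.8, 24.5 and 24.0 CPM with siControl. The groups did not overlap, but the log2 fold change of -0.24 ± 0.10 (SE) did not pass (edgeR adjusted p = 0.0592). With a correction for transcript GC content it passed, at -0.38 (adjusted p = 0.00295). Together with TRAF3 and the cIAP proteins, TRAF2 forms the complex known to degrade the kinase NIK (MAP3K14) and so to restrain the alternative pathway. These partners are named here after their values were seen. RNA levels do not measure the degradation of NIK, which was not tested. Upstream genes outside this complex fell too, as described below. TRAF3 fell with a log2 fold change of -0.31 ± 0.07 (edgeR adjusted p = 0.000673), and BIRC2, which encodes cIAP1, with -0.22 ± 0.06 (adjusted p = 0.00949). MAP3K14 measured 17.9, 18.8 and 12.1 CPM with siADNP against 14.1, 13.7 and 12.2 CPM with siControl. Its siADNP replicate 3 was lower than every siControl library, and its log2 fold change of 0.29 did not pass (adjusted p = 0.0973). TRAF1, another NF-kB target among the adaptors, had 19 to 32 reads per library and an interval of -0.24 to 0.81. TNFAIP3, which encodes the feedback ubiquitin-editing enzyme A20, measured 6.98 ± 1.36 and 6.62 ± 0.563 CPM (SD, n = 3), with an interval of -0.27 to 0.44.

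ICAM1, the adhesion molecule to which leukocyte integrins bind and a standard NF-kB target, showed the largest rise. It measured 15.3, 12.7 and 11.5 CPM with siADNP and 6.17, 7.08 and 7.60 CPM with siControl. The groups did not overlap, and the lowest siADNP library was well above the highest siControl library. The means were 13.2 ± 1.92 and 6.95 ± 0.724 CPM (SD, n = 3 each), a 1.90-fold difference, or 0.92 ± 0.15 on the log2 scale (SE; edgeR adjusted p = 1.03e-05). Over the 16 other settings on the count scale it lay between 0.81 and 1.01 and was called in each. In a GENCODE annotation its exons overlap transcripts on the opposite strand, and the sources used here do not say whether counting used strand, so reads of such transcripts and of ICAM1 cannot be told apart.

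SOD2, the manganese superoxide dismutase of mitochondria and an antioxidant NF-kB target, measured 65.2, 61.7 and 63.2 CPM with siADNP and 50.9, 50.9 and 53.6 CPM with siControl. All siADNP libraries lay above all siControl libraries. The means were 63.4 ± 1.77 and 51.8 ± 1.57 CPM (SD, n = 3), and the log2 fold change was 0.29 ± 0.07 (SE; edgeR adjusted p = 0.000883). The annotated exons of SOD2 overlap those of WTAP and ACAT2 on the opposite strand. Of these neighbours, WTAP was not called (-0.05) and ACAT2, an enzyme of sterol metabolism, was called higher (0.23, adjusted p = 0.00700). Their part in the SOD2 difference was not tested.

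TNFAIP2, a gene first found by its induction with tumour necrosis factor, measured 30.4, 30.1 and 28.6 CPM with siADNP and 25.6, 25.1 and 25.3 CPM with siControl. The groups were well apart for so small a difference, 0.23 ± 0.09 (SE; edgeR adjusted p = 0.0427). The call was narrow. It ended in 10 of the 16 other settings on the count scale, among them DESeq2's Wald test (adjusted p = 0.185) and the correction for transcript GC content, which lowered the log2 fold change to 0.086 (adjusted p = 0.503). It also ended in edgeR without siADNP replicate 1 (adjusted p = 0.102) or 2 (adjusted p = 0.102). The same held without siControl replicate 1 (adjusted p = 0.0817), 2 (adjusted p = 0.103) or 3 (adjusted p = 0.0909).

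PTGS2, which encodes the inducible cyclooxygenase COX-2 and is often raised in colon tumours, measured 2.31, 2.49 and 2.98 CPM with siADNP and 5.16, 3.34 and 3.50 CPM with siControl. The groups did not overlap, with siControl replicate 1 highest, and the log2 fold change was -0.62 ± 0.25 (SE; edgeR adjusted p = 0.0603). Without siControl replicate 1 it was -0.40 (adjusted p = 0.333), and without siControl replicate 2 it passed at -0.75 (adjusted p = 0.0477), so that single libraries decided its value. IER3, an immediate early gene that guards against apoptosis, was the most abundant of the 35 genes. It measured 169, 188 and 195 CPM with siADNP and 170, 201 and 181 CPM with siControl, and its interval of -0.12 to 0.12 on the log2 scale is among the narrowest of the 22 genes.

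**Figure D3:**
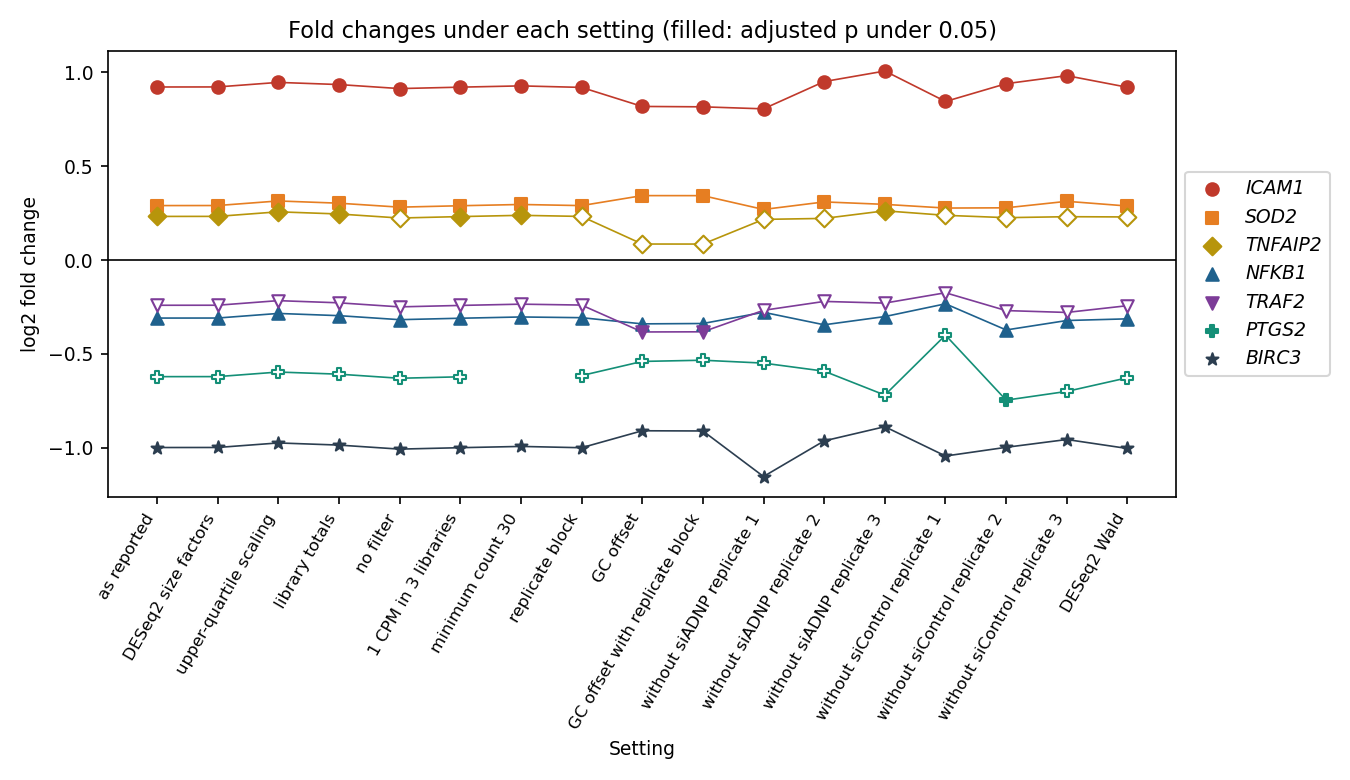
Log2 fold change (vertical axis) of 7 genes under the reported setting and each alternative on the count scale (horizontal axis), with filled symbols where the adjusted p was under 0.05. ICAM1, SOD2, NFKB1 and BIRC3 are filled throughout, TNFAIP2 is open in 10 alternatives, and PTGS2 spans -0.75 to -0.40 (it was not testable at a minimum count of 30).

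Most of the 16 chemokines and cytokines among the 35 genes had too few reads to test, 13 in all. Of the 7 chemokines, IL8 (CXCL8, the main neutrophil attractant) was the single one with enough reads to test. It had 14, 8 and 9 reads with siADNP and 9, 11 and 11 reads with siControl, and its log2 fold change was 0.19 with a wide interval of -0.60 to 0.97. CXCL1, another neutrophil attractant, had 3, 8 and 7 reads with siADNP and 12, 15 and 4 with siControl. CXCL2 had 11 and 13 reads over the 3 libraries of each group, CXCL3 8 and 4, and CXCL5 2 and 0. These genes are close paralogs, so some of their reads may have been left out or shared. CCL20, which attracts lymphocytes and dendritic cells, had 0 reads and 1 read, and CX3CL1 had 0 in every library. At this depth 0 reads over a group allow a level of up to 0.125 CPM with siADNP and 0.110 CPM with siControl, for counting error only. The summed level of the 7 chemokines was 2.49 to 3.47 CPM with siADNP and 2.05 to 3.59 CPM with siControl, so that the groups overlapped.

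Of the 9 cytokines and growth factors among the 35 genes, 7 were too scarce to test. TNF, the founding activator of the pathway, had 1 read with siADNP and 0 with siControl, IL6 had 0 and 1, CSF2 0 and 1, and LTB 0 in every library. IL1A had 9 and 8 reads and IL1B 2 and 2. IL23A, a subunit of interleukin 23, was the one untested gene of the 35 whose scaled levels did not overlap between groups. It had 10, 8 and 7 reads with siADNP and 6, 7 and 3 with siControl, or 1.28, 0.906 and 0.949 CPM against 0.673, 0.689 and 0.362 CPM. With 25 and 16 reads in all it was below the filter. The share of all untested genes without overlap is not given here, so this is no result about IL23A. LIF and CSF1 were the 2 of these 9 genes with enough reads to test. LIF, a cytokine of the interleukin 6 family, stood at 18.1 ± 0.318 and 18.0 ± 0.666 CPM (SD, n = 3), and its log2 fold change of 0.0083 had an interval of -0.21 to 0.22. CSF1, the macrophage growth factor, stood at 3.65 and 2.86 CPM with an interval of -0.12 to 0.88.

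**Figure D4:**
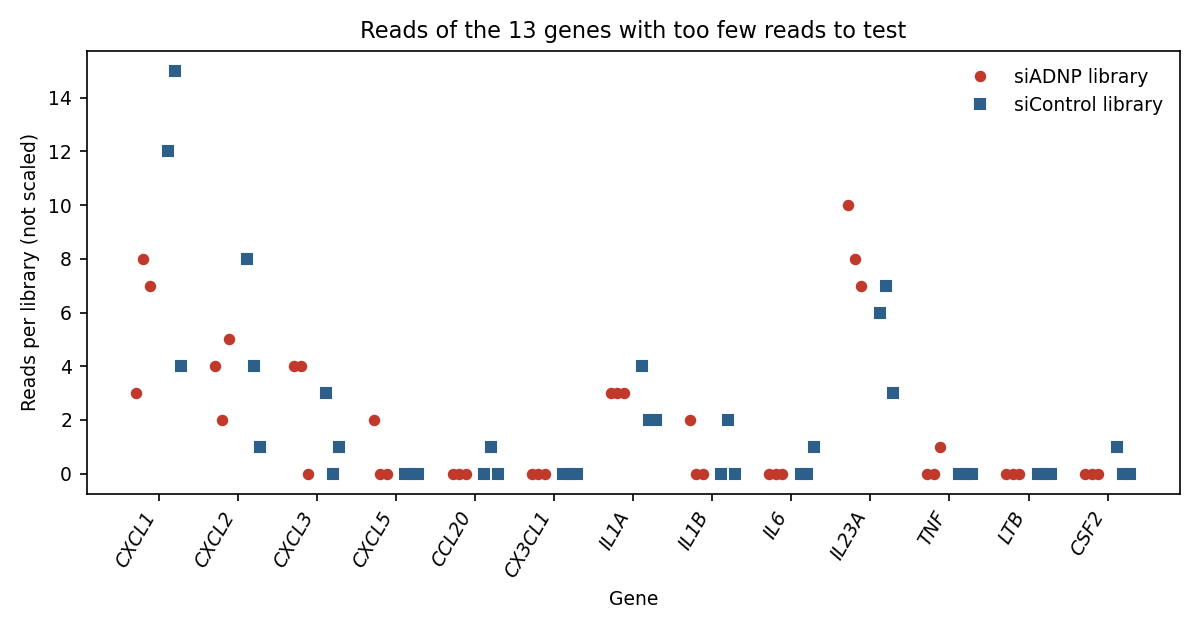
Reads per library (vertical axis, not scaled for depth) of the 13 genes with too few reads to test, red circles for siADNP and blue squares for siControl. The highest value is 15 reads, for CXCL1 in a siControl library, and 8 of the 13 genes have fewer than 10 reads over all 6 libraries.

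Levels of different genes were compared per kilobase of their longest annotated transcript (GENCODE, GRCh38). Averaged over the 6 libraries, IER3 had 136 CPM per kb, far above RELA with 24.5, NFKBIB with 20.4, NFKB2 with 17.5, NFKB1 with 16.8 and NFKBIA with 12.9. The other subunits were scarcer, with 1.89 CPM per kb for RELB and 1.25 for REL. ICAM1 and BIRC3 stood at 3.09 and 1.75 CPM per kb, so the largest differences lay in weakly expressed genes. These values depend on the transcript chosen, above all for SOD2 and REL, whose longest transcripts run to 14266 and 11255 bases.

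In the wider pathway, too, called genes lay in both directions. The lists here and in the next paragraphs were also drawn up with earlier results of these data known. Their shares of called genes are therefore descriptions only. Of 51 genes of receptors, adaptors, kinases and ubiquitin enzymes upstream of NF-kB, 47 were tested, and 2 rose, 9 fell and 36 did not pass (23.4% called, against 28.3% of all tested genes, 14.6% higher and 13.7% lower; median log2 fold change 0.0047, against -0.0013). With upper-quartile scaling 4 rose and 6 fell, and with library totals 3 rose and 6 fell. The shares of all tested genes called with these scalings are not given here, so these counts are no result about this list alone. These scalings also moved the median log2 fold change over all tested genes, to 0.023 and 0.012. The part of that general shift in these counts was not tested. TBK1, a kinase related to the IkB kinases, fell with a log2 fold change of -0.31 ± 0.06 (edgeR adjusted p = 7.25e-05). The receptors TNFRSF12A (for TWEAK) and TNFRSF10B (for TRAIL) fell with -0.29 and -0.23. CARD10, a scaffold that links receptors to the IkB kinase, and MYD88, the adaptor of Toll-like and interleukin 1 receptors, rose with 0.44 and 0.29; the MYD88 call ended without siADNP replicate 1 (adjusted p = 0.0531).

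Of 30 listed feedback and negative regulators, 29 were in the count table and 27 were tested, and 3 rose, 7 fell and 17 did not pass (37.0% called, against 28.3% of all tested genes; median -0.08, against -0.0013). CYLD, a deubiquitinase that shuts off signalling, fell with a log2 fold change of -0.38 ± 0.10 (edgeR adjusted p = 0.00302), TAX1BP1, a partner of A20, with -0.25, and TRAF4 with -0.32. NKIRAS1 and NKIRAS2, small GTPase-like proteins that bind IkB, fell with -0.36 and -0.27, and NLRC5 rose with 0.54. Annotated exons of NKIRAS1 overlap those of RPL15 on the opposite strand, and those of NKIRAS2 overlap DNAJC7. The limit given for ICAM1 therefore holds for both. It also holds, among others, for CYLD, TAX1BP1, TRAF4, TBK1, TNFRSF12A, TNFRSF10B, PLAU and CCND1. The NKIRAS2 and NLRC5 calls were absent in DESeq2's Wald test (adjusted p = 0.112 and 0.0798) and without siADNP replicate 1 (0.176 and 0.0851). NKIRAS2 also lost its call without siADNP replicate 3 (0.0541) and siControl replicate 2 (0.0992). DESeq2's Wald test called 0 genes of this list higher, as did edgeR without siADNP replicate 1, where 3 genes and 1 gene higher had an unadjusted p under 0.05. Of all genes with an adjusted p, DESeq2's test called 9.11% higher, and the share in that edgeR fit is not given here.

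A further list of 55 reported NF-kB targets, none of them among the 35, had 30 testable genes, and 7 rose, 6 fell and 17 did not pass (43.3% called, against 28.3% of all tested genes; median 0.0073, against -0.0013). PLAU, the urokinase protease, rose with a log2 fold change of 0.72 ± 0.09 (edgeR adjusted p = 1.93e-07), from 20.4, 24.6 and 19.7 CPM to 38.3, 34.4 and 34.7 CPM. SDC4, a heparan sulfate proteoglycan, fell with -0.63 ± 0.08 (adjusted p = 1.52e-07), the cytokine IL18 with -0.49 and the death receptor FAS with -0.46. The abundant CCND1 and EREG, which encode cyclin D1 and the growth factor epiregulin and answer to other pathways too, fell with -0.43 and -0.42.

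Transcript GC content moved with the differences across the transcriptome. The median GC content was 54.0% in genes called higher, 43.0% in genes called lower and 48.6% in the others, and across 12075 genes Pearson's r between GC content and log2 fold change was 0.276, a description over genes of the same libraries. The 22 NF-kB genes had a median of 56.9%, against 48.4% for all tested genes. ICAM1 with 56.9% and BIRC3 with 34.8% lay on the side of the trend that their direction shares, and SOD2 with 41.7% rose against it. With a correction for GC content the log2 fold changes were 0.82 for ICAM1, 0.34 for SOD2, -0.34 for NFKB1 and -0.91 for BIRC3, all still called, while TNFAIP2 lost its call and RELA (-0.19, adjusted p = 0.0192) and TRAF2 gained one. With that correction 2 of the 22 genes were called higher and 4 lower, against 3 and 2 without it. Of all tested genes it called 12.4% higher and 14.7% lower, 27.0% in all. The share of reads that the counting assigned to no feature was 54.4% to 55.7% with siADNP and 53.5% to 54.3% with siControl. Its part in these results was not tested.

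**Figure D5:**
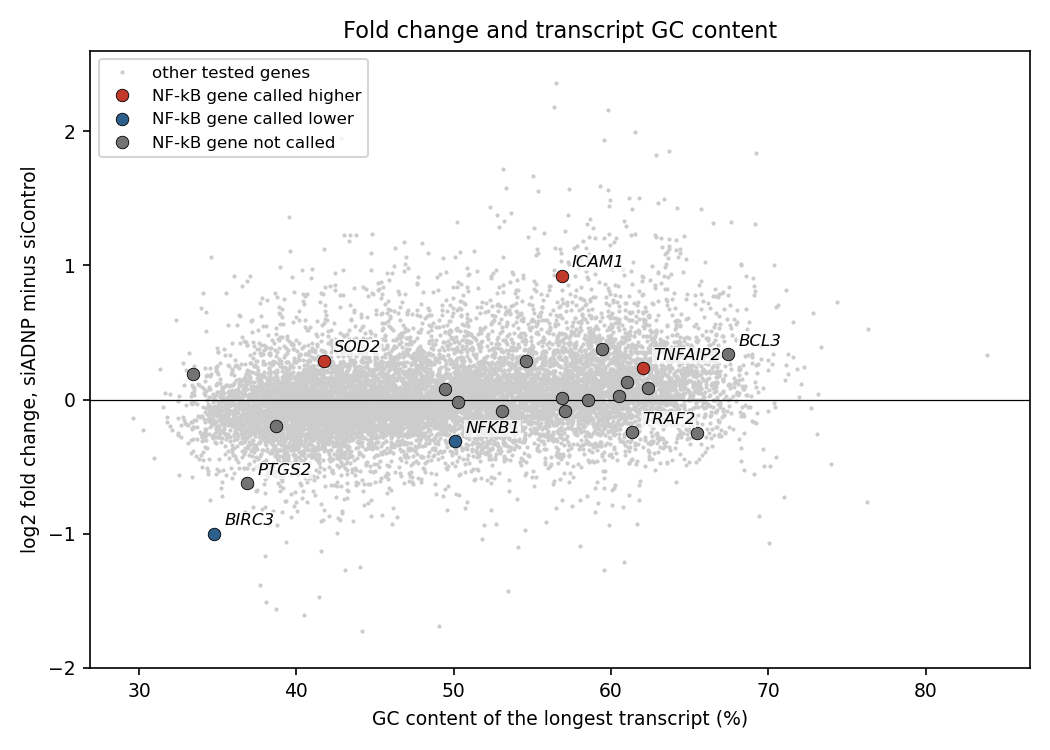
Log2 fold change (siADNP minus siControl, vertical axis) against the GC content of the longest transcript (%, horizontal axis) for all tested genes with a matched transcript (grey) and the 22 NF-kB genes (red called higher, blue called lower, dark grey not called). BIRC3 at 34.8% GC lies low and ICAM1 at 56.9% high, on the sides toward which the cloud tilts, and SOD2 at 41.7% lies above 0.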

How the data were processed

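RNA was sequenced from HCT116 cells treated with siADNP or siControl, 3 libraries each. The authors deposited raw read counts per gene symbol. STAR, HTSeq and DESeq2 on hg19 stand in the submitters' processing notes. Their versions, the annotation and the strand setting were not given in the sources used here. The second table holds deposited log2-like variance-stabilized values and served in 1 alternative. Lines without a gene name did not enter library sizes, and the no-feature line took 53.5% to 55.7% of all reads per library.

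The test was edgeR 4.0.16 (R 4.3.3) over all 6 libraries (TMM, filterByExpr with minimum count 10, glmQLFit and glmQLFTest), two-sided, with Benjamini-Hochberg adjustment over all tested genes. The SE is the log2 fold change over the square root of F. The script was tested on simulated data. Alternatives were DESeq2 1.42.0 (Wald), other scalings and filters, a replicate block, a GC offset (loess per library on GENCODE transcript GC, known for 96.7% of tested genes), limma 3.58.1 on the deposited values, and leaving out each library. Members and lists were chosen with earlier results of these data known. All members are reported, and from each pathway list up to 6 called genes with the smallest p, while BIRC2, MAP3K14, WTAP and ACAT2 were named after their values were seen. No 2 libraries held identical counts. Promoter windows are RefSeq's. Figures used matplotlib 3.10.9.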

Additional observations from a re-analysis of the deposited data

How the results depend on the processing

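ADNP, NFKB1, BIRC3, ICAM1 and SOD2 kept their direction and their call in every alternative, with the deposited log2 values included, on which differences are smaller by construction (0.33 for ICAM1 and -0.34 for BIRC3). With DESeq2's Wald test 1106 genes were called higher and 1079 lower, the upstream list had 5 falls, and the feedback list 0 rises and 4 falls. With the GC offset 4 of the 22 tested NF-kB genes were called lower and 1 feedback regulator higher, and upper-quartile scaling gave 4 rises in the upstream list. Leaving out 1 library gave 1 to 4 rises and 4 to 8 falls in the upstream list, and 0 to 3 rises and 4 to 7 falls in the feedback list. The shares of all tested genes called in these fits and with upper-quartile scaling are not given here. The counts are therefore no result about these lists alone. The cause of these shifts was not tested. The fits without 1 library also rest on fewer libraries, and the part of that was not tested either.

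No shared effect of the replicate number was seen: the correlations of same-numbered deviations were 0.024, -0.035 and -0.029. Those of differently numbered libraries ran from -0.027 to 0.058. These values cannot show whether the libraries were prepared in pairs. With a replicate block 1694 genes were called higher and 1542 lower, and 2 and 2 of the 22 tested NF-kB genes, since TNFAIP2 did not pass (adjusted p = 0.0530). With GC offset and replicate block in 1 fit 4 of the 22 tested NF-kB genes were called lower and 0 feedback regulators higher. The shares of all tested genes called in that fit are not given here. These counts are therefore no result about these genes alone. Genes with under about 50 reads per library, such as RELB, TRAF1, PTGS2, CSF1 and IL8, had wide intervals, from -0.60 to 0.97 for IL8, and the minimum count of 30 left PTGS2, TRAF1, CSF1 and IL8 untested.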
